A study of Mus musculus with 4 samples.

Results

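The tripartite motif (TRIM) genes encode a large family of proteins built from a RING domain, B-box zinc fingers and a coiled coil, followed by a variable C-terminal part that often decides what the protein binds. Members were the non-control array probes whose transcript accession mapped to a mouse gene named Trim with a number and an optional letter, plus Pml, the gene also known as Trim19. This gave 61 genes of the 19751 named genes on the array, covered by 87 probes. Another 6 genes of that naming had no such probe, and 2 further family genes were left out by the rule and are not analysed here. The members fell into 14 genes with reported induction by interferons, 3 genes of striated muscle (Trim54, Trim55 and Trim72) and 44 others.

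RNA came from C2C12 cells, an established mouse myoblast line, on day 3 of differentiation in lowered horse serum. The labels give the serum as 2% in one place and 10% in another. Treated cultures received interferon-gamma (IFN-γ) at 1 ng/ml and control cultures were untreated. Each of 4 two-colour arrays held treated RNA in Cy5 and control RNA in Cy3, with no dye swap, so dye and treatment cannot be told apart for any single probe. The treated cultures are labelled as biological replicates 1 to 4, whereas nothing is said of how the control cultures were kept apart. The p-values then describe only how far the arrays differ from each other, which may be technical. Values below are log2 ratios of treated over control, with their SD over the 4 arrays.

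Most TRIM proteins with a RING domain act as ubiquitin ligases, passing ubiquitin from an E2 enzyme to a target. Part of the family restricts viruses or tunes innate immune signalling, and these members are transcribed in response to interferons through STAT and interferon regulatory factors. Another small branch is specific to striated muscle, where its proteins sit on titin, microtubules or the surface membrane.

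Across the 4 arrays the family was called at about the rate of all genes, with rises in its interferon-responsive branch and falls in its muscle branch under loess normalisation. Of the 61 members, 50 passed the filter on dim probes, which asks that 1 channel be well above background on at least 3 arrays. Of these 50 members 10 (20%) rose and 7 (14%) fell (limma, adjusted p under 0.05). Among all 15678 tested genes 19.8% rose and 13.9% fell, 33.7% in either direction. The family median was 0.06 beside 0.03 for all tested genes. Among the 12 tested interferon-responsive members 6 rose, 0 fell and 6 missed the threshold, and the median was 0.21 (at an unadjusted p under 0.05 limma had 8 higher and 0 lower, and the methods' t-test called 5 higher and 0 lower). Trim30a, Trim34a, Trim30d and Trim69 entered this count only through the treated channel, and 3 of them are among the 6 rises; with both channels above background 3 of 6 members rose. The counts became 8 higher and 4 lower under median centring (median 0.92). Where the arrays were centred on the tested genes without loess, they were 4 higher and 4 lower. Over all 15678 tested genes median centring gave 10510 higher and 2643 lower, and centring without loess 4709 higher and 5478 lower. With Feature Extraction's ratios the median of the interferon-responsive members was 0.96. Among the 3 muscle members 2 fell and 1 missed the threshold, and the median was −0.59. Among the 35 other tested members 4 rose, 5 fell and 26 missed the threshold, around a median of 0.04. At least 2-fold rises were seen for 2 members, Trim21 and Trim30a, against 1.79% of all tested genes. That count was 7 with Feature Extraction's ratios, 13 under median centring, and 1 without replicate 1 or with centring on the tested genes without loess. The whole set of 15678 tested genes changed too, from 281 such rises under loess to 4449 after median centring. It had 778 on the Feature Extraction scale and 480 with centring on the tested genes without loess. The family counts at these settings are therefore not to be read against the 1.79%. The split of 10 higher and 7 lower became 30 and 12 under median centring, where the median over all tested genes was 0.70, and 12 and 20 when arrays were centred on the tested genes without loess.

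**Figure D1:**
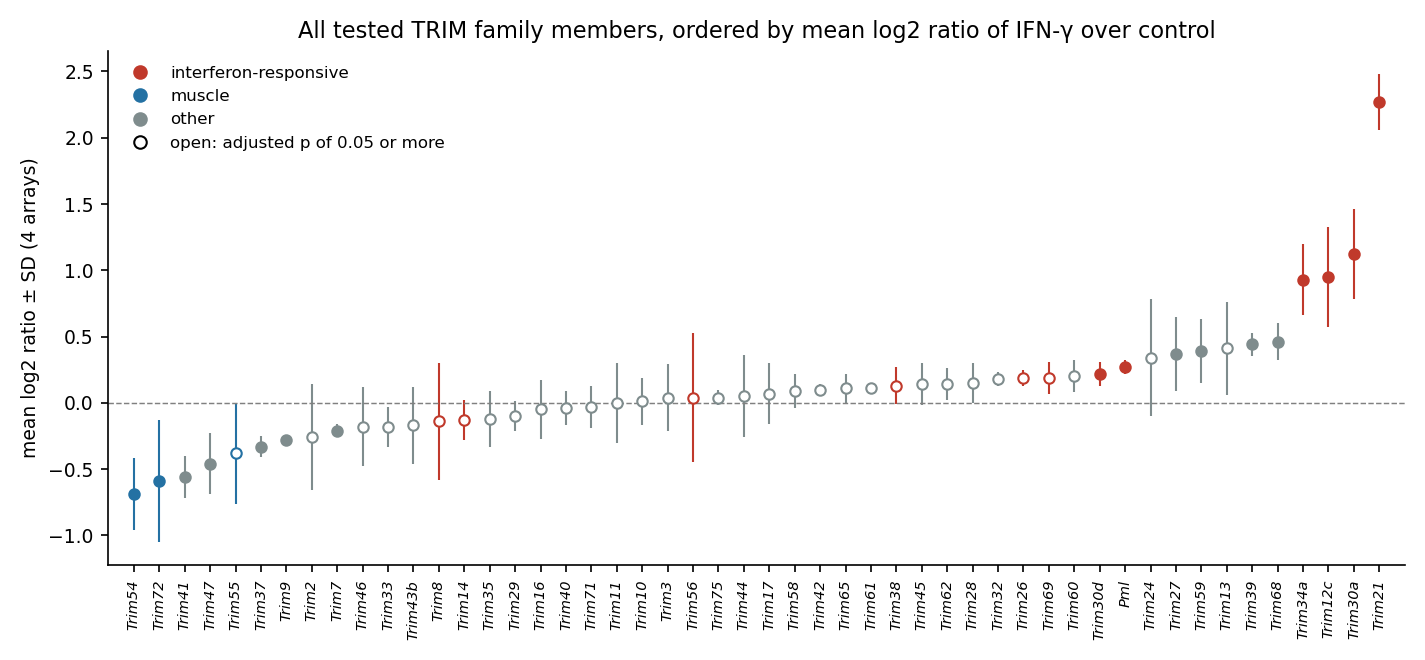
Mean log2 ratio of IFN-γ over control for the 50 tested TRIM family members, ordered from lowest to highest, with bars for the SD over 4 arrays. Filled points passed an adjusted p of 0.05, red marks interferon-responsive, blue muscle and grey other members. Trim21, at 2.27, stands above all others, the next 3 members lie between 0.93 and 1.12, and the 2 lowest points are Trim54 and Trim72.

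Trim21 had the highest ratio under loess. Its order against Trim30a and Trim34a is not settled, since these have only lower bounds under loess and exceed Trim21 with Feature Extraction's ratios. Trim21 encodes Ro52, a cytosolic antibody receptor and ubiquitin ligase that directs antibody-coated virus to the proteasome. Its log2 ratios were 2.54, 2.29, 2.23 and 2.02 on replicates 1 to 4. In the scanner files its median spot intensity was 3324, 1722, 3144 and 2391 in the treated channel and 151, 108, 99 and 139 in the control channel, over local backgrounds of 30 to 41. These raw intensities, here and below, are on unlike scales, since Cy5 was the brighter channel on every array. Trim11, with a mean ratio of 0.00, had 15013 in Cy5 and 3774 in Cy3 on replicate 1. Every array was high, and the treated and control values did not overlap on the normalised scale, where the lowest treated level was 10.17 and the highest control level 8.18. The mean was 2.27 ± 0.21 (SD, n = 4), a 4.83-fold rise with an adjusted p of 4.08e-05. The ratio remained called under all 13 other settings, with means from 2.18 to 3.09.

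Trim30a, Trim12c and Trim34a, the next in order, are neighbours. On mouse chromosome 7 a run of 10 TRIM genes lies with at most 1 other protein-coding gene between neighbours in the RefSeq annotation, in the order Trim6, Trim34a, Trim5, Trim12a, Trim34b, Trim12c, Trim30b, Trim30c, Trim30a and Trim30d. Of these 10 genes, 4 were tested and called higher (Trim34a, Trim12c, Trim30a and Trim30d), 3 were not tested because their probes were dim (Trim6, Trim12a and Trim30b) and 3 had no probe. The share called higher over all tested genes was 19.8%, and Trim30d kept its call under only 3 of 12 other settings. For Trim34a, Trim30a and Trim30d no array had a control signal well above background, so they entered the test only through the treated channel, and the filter largely sets the count. Trim12c was the 1 tested gene of the run measured in both channels. Cross-hybridisation between these related genes was not tested.

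Trim12c, a rodent relative of the retroviral restriction factor gene TRIM5, had ratios of 1.03, 1.30, 1.07 and 0.41 on replicates 1 to 4. Replicate 4 was the low array, and no array was below 0. The mean was 0.95 ± 0.38 (SD, n = 4), a 1.94-fold rise with an adjusted p of 0.00518. Its 3 probes were each called higher when fitted on their own, at 0.95, 0.68 and 0.27, although the third had no control signal well above background (at least 1.21-fold) and the second had one on 1 array. Of all tested probes 20.4% were called higher.

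Trim30a, whose protein restrains Toll-like receptor signalling to NF-kappaB, had ratios of 1.63, 0.97, 0.98 and 0.91. Its treated median intensities were 326, 145, 262 and 191, against 41, 46, 48 and 54 in the control channel, where the local background was 36 to 46. Replicate 1 was high and the other arrays lay close together, with all treated values above all control values. Since the control channel was not well above background, only a lower bound is given. Under loess Trim30a was at least 2.18-fold higher, from normalised means of 7.48 treated and 6.36 control (limma, adjusted p = 0.00244). This bound equals the plain loess ratio and is not a minimum under other scalings. The log2 ratio was 0.97 under median centring and 0.30 with centring on the tested genes without loess.

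Trim34a had ratios of 1.33, 0.74, 0.86 and 0.78, with treated intensities of 315, 167, 265 and 198 and control intensities of 47 to 53. It too was highest on replicate 1. It was at least 1.9-fold higher, from normalised means of 7.50 treated and 6.57 control (adjusted p = 0.00262), whereas its second tested probe had 0.20 ± 0.21 and did not pass. Trim30d was only at least 1.11-fold higher, with ratios of 0.31, 0.15, 0.29 and 0.15 and an adjusted p of 0.0413, and it was not called without replicate 1, 3 or 4 (0.20, 0.20 and 0.25). These bounds hold under loess only, and that of Trim34a equals its plain loess ratio. They compare a Cy5 with a Cy3 level and are open to dye bias.

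Values of the dim members depended on the processing. Feature Extraction's own ratios differ from those above in background correction, offset and normalisation together, and no setting separated these. Against a control channel at background such ratios do not measure the size of a rise. With Feature Extraction's ratios Trim30a had 5.18, 3.74, 3.44 and 3.04 on the 4 arrays, a mean of 3.85 ± 0.93, and Trim34a had 4.53, 3.07, 3.51 and 3.78, a mean of 3.72 ± 0.61, both still called (adjusted p = 0.00239 and 0.000766). Trim69 had 2.12, 1.66, 0.75 and 1.66 there and passed (adjusted p = 0.00779), against 0.19 ± 0.12 and no call under loess. Trim30d had 2.31, 0.00, 1.17 and 1.10 and did not pass (adjusted p = 0.0561). Without loess, with arrays centred on the tested genes, Trim30a and Trim34a had 0.30 and 0.17 and did not pass, and Trim30d and Trim69 were called lower, at −1.13 and −0.98. Signs of these last 2 genes therefore changed with the scaling, under median centring too (−0.46 and −0.30).

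**Figure D2:**
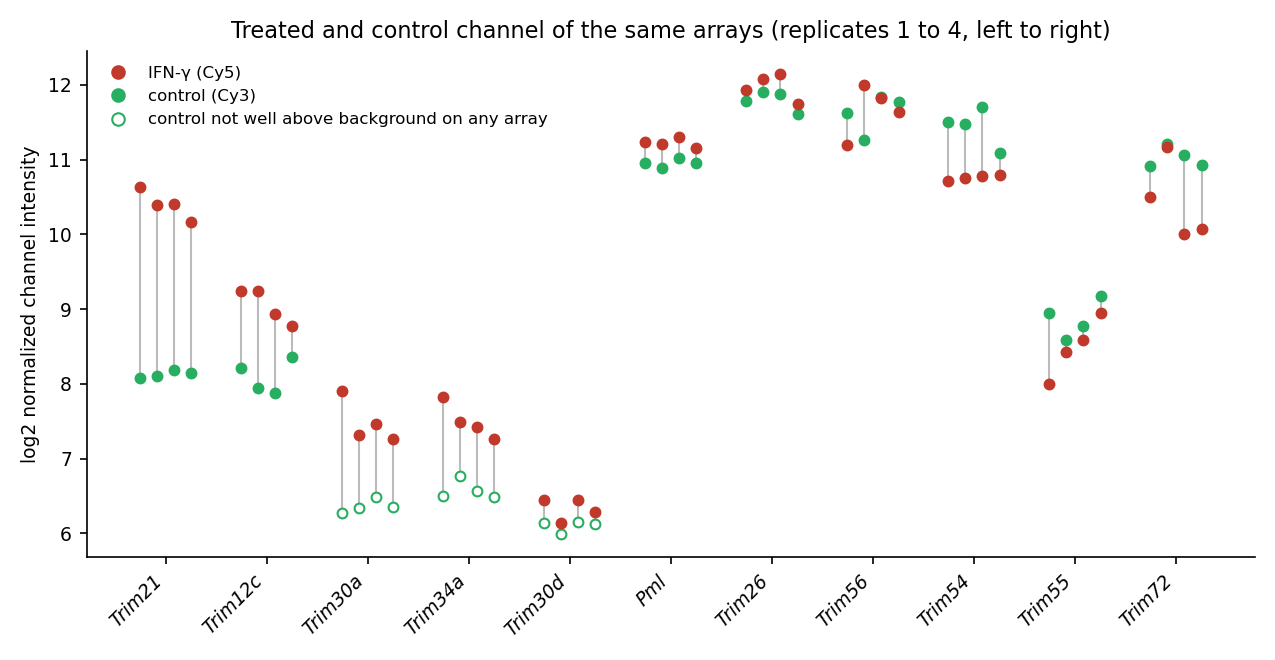
Normalised log2 intensity of the treated channel (red, Cy5) and the control channel (green, Cy3) on replicates 1 to 4, joined within an array, for 11 TRIM genes; levels are to be compared within a gene only. Open green points mark genes with no control signal well above background (Trim30a, Trim34a and Trim30d), and Trim21 has the widest gap, with treated levels from 10.17 to 10.63 and control levels from 8.08 to 8.18.

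The upstream sequences of Trim21, of the tested members of the chromosome 7 run and of Trim26 are shown, because interferons act on such genes through short response elements. Other members that rose, such as Trim68 and Pml, are not shown. Each run is the 250 bases before the annotated start, 5′ to 3′ on the gene's strand, from RefSeq (GRCm38.p6), and of the 61 members 47 had an entry in that table. Capitals mark matches to the core of the interferon-stimulated response element, taken as GAAA, a gap of any 2 bases and GAAA again; on the opposite strand it reads TTTC, the gap and TTTC.
Trim30a (chr7:104465194-104465443, minus strand): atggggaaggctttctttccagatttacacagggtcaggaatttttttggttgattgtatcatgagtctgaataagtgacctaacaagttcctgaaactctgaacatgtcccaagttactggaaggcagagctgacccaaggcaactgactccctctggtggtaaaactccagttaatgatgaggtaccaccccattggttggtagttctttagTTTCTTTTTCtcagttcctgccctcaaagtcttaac
Trim30d (chr7:104507850-104508099, minus strand): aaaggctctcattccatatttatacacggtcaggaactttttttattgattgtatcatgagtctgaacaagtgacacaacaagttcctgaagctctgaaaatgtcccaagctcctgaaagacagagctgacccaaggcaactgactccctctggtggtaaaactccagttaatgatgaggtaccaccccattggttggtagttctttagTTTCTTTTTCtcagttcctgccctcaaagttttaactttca
Trim12c (chr7:104353350-104353599, minus strand): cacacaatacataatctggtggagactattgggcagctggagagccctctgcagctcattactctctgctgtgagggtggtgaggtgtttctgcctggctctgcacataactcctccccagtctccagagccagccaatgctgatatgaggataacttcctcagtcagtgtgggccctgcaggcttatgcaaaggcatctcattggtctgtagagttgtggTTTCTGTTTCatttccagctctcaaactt
Trim26 (chr17:36836896-36837145, plus strand): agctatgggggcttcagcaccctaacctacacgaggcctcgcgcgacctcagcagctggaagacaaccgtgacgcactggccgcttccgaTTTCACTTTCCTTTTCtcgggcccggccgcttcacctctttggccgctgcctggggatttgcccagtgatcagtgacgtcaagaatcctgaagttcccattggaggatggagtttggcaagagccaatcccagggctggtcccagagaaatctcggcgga
Trim21 (chr7:102565483-102565732, minus strand): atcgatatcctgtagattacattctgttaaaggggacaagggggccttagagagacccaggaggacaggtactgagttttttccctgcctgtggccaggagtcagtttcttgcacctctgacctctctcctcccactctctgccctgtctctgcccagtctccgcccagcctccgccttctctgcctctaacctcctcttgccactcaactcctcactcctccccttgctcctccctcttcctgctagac
Trim34a (chr7:104244207-104244456, plus strand): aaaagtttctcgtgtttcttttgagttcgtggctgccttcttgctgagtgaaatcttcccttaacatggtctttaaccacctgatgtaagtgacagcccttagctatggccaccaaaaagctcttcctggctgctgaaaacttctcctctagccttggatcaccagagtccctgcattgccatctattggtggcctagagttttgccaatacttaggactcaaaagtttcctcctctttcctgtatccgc

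Matches to this core on either strand occurred upstream of 4 of the 47 members, which were Trim30a, Trim30d, Trim12c and Trim26, all in the interferon-responsive branch. By window, 4 of 61 member windows (6.56%) held the motif, against 2.98% of the 32851 windows in the table. For Trim30a the match lay 36 to 27 bases before the start, for Trim30d 41 to 32 bases and for Trim12c 29 to 20 bases, while Trim26 held overlapping matches, the first 160 to 151 bases before its start. Trim30a had a second annotated start, whose window held no match. The windows of Trim30a and Trim30d shared a stretch of 118 identical bases, so their matches are copies of 1 another and are not independent. Trim21 and Trim34a had no match in this window. The core of the gamma-activated site, TTCNNNGAA, was found upstream of Trim15, Trim31, Trim45 and Trim46 and in 7.02% of all windows, and in none of the 14 windows of interferon-responsive members. A match is a string of letters and was not tested for binding.

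The remaining tested interferon-responsive members had mean loess ratios between −0.14 and 0.27. Pml, which organises nuclear bodies that bind sumoylated proteins, had ratios of 0.29, 0.32, 0.28 and 0.20, which is higher on 4 of 4 arrays with little spread. Its mean of 0.27 ± 0.05 (SD, n = 4) is a 1.21-fold rise (adjusted p = 0.0172), and its second probe was also called, at 0.36 ± 0.16. With Feature Extraction's ratios Pml had 0.21 and did not pass (adjusted p = 0.0973), nor did it pass without replicate 1, 3 or 4, at means of 0.27 to 0.30. Trim26, whose protein acts on the antiviral factor IRF3, had 0.15, 0.18, 0.27 and 0.14, also above 0 on 4 of 4 arrays, but its mean of 0.19 ± 0.06 did not pass (adjusted p = 0.0602; 95% interval 0.04 to 0.33). Trim38, a regulator of innate immune signalling, had 0.12, 0.14, −0.04 and 0.31 and a mean of 0.13 ± 0.14 with no call. Its control signal was well above background on 1 array only, so the size of any change is not settled. With Feature Extraction's ratios it had 1.46, 1.69, −0.83 and 0.78, also without a call.

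Trim56, Trim14 and Trim8 did not pass and had ratios on both sides of 0. Trim56, which promotes signalling by cytosolic DNA and double-stranded RNA sensors, had −0.42, 0.73, −0.01 and −0.13, a mean of 0.04 ± 0.49 with a 95% interval of −0.39 to 0.48. Trim8, whose protein lowers the JAK inhibitor SOCS1, had −0.62, 0.43, −0.27 and −0.10, a mean of −0.14 ± 0.44. For both genes replicate 2 was the high array, and without it Trim8 was called lower at −0.33. Trim14, an adaptor of mitochondrial antiviral signalling, had −0.15, −0.26, 0.08 and −0.20, a mean of −0.13 ± 0.15 with a 95% interval of −0.32 to 0.05. Its spots were dim, with control intensities of 59 to 73 over backgrounds of 32 to 42. With Feature Extraction's ratios its mean was −0.53 ± 0.51, also without a call. Replicate 2 was also the array with the lowest mean correlation with the other arrays over all tested genes, at 0.687, against 0.797 to 0.837 for the others. Trim12a and Trim30b were not tested, since none of their probes was well above background in either channel on any array.

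**Figure D3:**
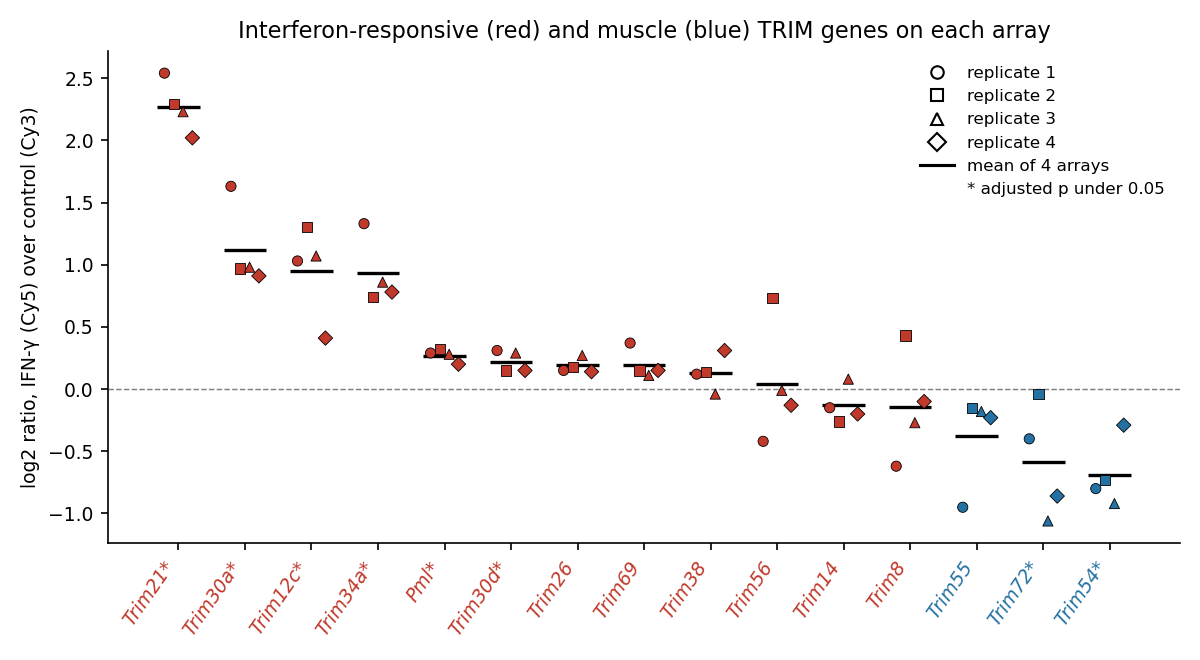
Log2 ratio of IFN-γ over control on each of the 4 arrays for the 12 tested interferon-responsive (red) and 3 muscle (blue) TRIM genes; symbols stand for replicates 1 to 4, bars for means and asterisks for an adjusted p under 0.05. The 4 points of Trim21 lie between 2.02 and 2.54, those of Trim56 and Trim8 fall on both sides of 0 with replicate 2 the highest, and all points of the muscle genes lie below 0.

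The muscle members lay below 0 on every array. Trim54, which encodes MuRF3, a titin- and microtubule-associated ligase, had ratios of −0.80, −0.73, −0.92 and −0.29 on replicates 1 to 4. Replicate 4 was closest to 0. The normalised treated levels of 10.71 to 10.80 lay below all control levels, which were 11.09 to 11.70. The mean was −0.69 ± 0.27 (SD, n = 4), a level 0.621 times that of control (adjusted p = 0.00656). Trim72, which encodes the membrane repair protein MG53, had −0.40, −0.04, −1.06 and −0.86. Replicate 2 was near 0, and treated levels of 10.00 to 11.17 overlapped control levels of 10.91 to 11.21. Its mean was −0.59 ± 0.46 (adjusted p = 0.0403), and it was not called without replicate 1, 3 or 4 (−0.65, −0.43 and −0.50) or with Feature Extraction's ratios (−0.63, adjusted p = 0.0579). Trim55, which encodes MuRF2, a partner of the titin kinase region, had −0.95, −0.15, −0.18 and −0.23, a mean of −0.38 ± 0.38 that did not pass (adjusted p = 0.0908; 95% interval −0.73 to −0.03). Without replicate 2 it was called, at −0.46, and without replicate 1, the low array, its mean was −0.19.

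The direction of the muscle members held only relative to the bulk of genes. Under median centring Trim54, Trim72 and Trim55 had 0.31, 0.38 and 0.30, below the median of 0.70 of all tested genes, and with centring on the tested genes without loess they had −0.37, −0.29 and −0.38, of which only Trim54 was called. In a list of 20 M-band, titin and surface membrane partners of these proteins, 19 were tested, 10 fell, 4 rose and 5 missed the threshold; the median was −0.42. Of all tested genes 13.9% fell and 19.8% rose. Under median centring the list had 11 higher and 2 lower and a median of 0.39. All 15678 tested genes then had 10510 higher and 2643 lower and a median of 0.70. Without replicate 3, and likewise without replicate 4, that list had 7 lower and 1 higher. Myom3 and Myom2, which encode myomesins of the M-band, had −1.03 ± 0.10 and −0.85 ± 0.21. Mybpc2, a fast myosin-binding protein gene, had −1.0 ± 0.31, and Tcap, which encodes the titin cap telethonin, had −0.91 ± 0.66, all past the threshold. The 4 that rose, named after their values were seen, were the autophagy receptor genes Nbr1 and Sqstm1, Cavin1 and Anxa2, at 0.47, 0.40, 0.35 and 0.46. Anxa1, the brightest that did not pass, had 0.36 ± 0.27.

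Of 6 myoblast and myotube markers, all well above background in both channels, 3 fell, where 13.9% of all tested genes fell (Des −1.23 ± 0.26, Ckm −1.12 ± 0.73 and Myh3 −0.62 ± 0.06) and 3 did not pass (Myod1 −0.02, Myog −0.01 and Acta1 −0.36). Their summed normalised intensity was 172923 to 220318 in the treated channel and 245498 to 321814 in the control channel. Under median centring 4 of the 6 were called higher, with a median of 0.56, beside 0.70 for all tested genes. In RNA of whole cultures, fewer myotubes and less of an RNA per myotube cannot be told apart. Among 7 leukocyte markers 6 were tested, of which 2 fell (Cd3e and Csf1r, at −0.44 and −0.40) and 0 rose by limma (0 higher also at an unadjusted p under 0.05 and by the methods' t-test). The pan-leukocyte gene Ptprc had 0.01 ± 0.10. It was well above background in the treated channel on 4 arrays and in the control channel of 1 array. Cd3e, Cd79a, Itgam, Adgre1 and Csf1r were well above background in both channels on all 4 arrays. In RNA of a myoblast line such signals do not by themselves show leukocytes, and their source was not tested. The leukocyte markers summed to 44649 to 71308 treated and 56579 to 79973 control. Of 2 tested endothelial markers Kdr fell (−1.02) and Pecam1 had −0.19, with summed intensities of 1604 to 2423 treated and 3096 to 4413 control, while Cdh5 was above background on no array. Of 3 tested fibroblast markers Pdgfra and Col1a1 rose, at 0.67 and 0.46, and Dcn had 0.04 ± 0.35, summing to 67646 to 77920 treated and 49489 to 68920 control. The part of culture composition in the TRIM results was not tested.

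Among the other members, called rises and falls were below 2-fold under loess. With Feature Extraction's ratios Trim58 and Trim60 were called at just over 2-fold, 1.01 ± 0.41 and 1.14 ± 0.33 (adjusted p = 0.0112 and 0.00547). Neither gene had a control signal well above background on any array. Under median centring 8 other members passed 2-fold, as did 4449 of all 15678 tested genes, against 281 of these under loess. The 4 rises were those of Trim68, Trim39, Trim59 and Trim27. Trim68, a ligase studied on the androgen receptor, had 0.57, 0.27, 0.54 and 0.46, a mean of 0.46 ± 0.14 (adjusted p = 0.0064), and lost its call with centring on the tested genes without loess, at 0.07. Trim39, which is linked to control of the anaphase-promoting complex, had 0.45, 0.36, 0.55 and 0.37, a mean of 0.44 ± 0.09 (adjusted p = 0.00503), and stayed called under all 13 other settings. Its second probe had 0.14 ± 0.04 and was not called. Trim59, a membrane-bound member, had 0.28, 0.64, 0.10 and 0.53, a mean of 0.39 ± 0.24 (adjusted p = 0.0308), with its second probe called at 0.84 ± 0.40. Trim27, the ret finger protein gene, had 0.23, 0.79, 0.22 and 0.24, a mean of 0.37 ± 0.28 (adjusted p = 0.0481), and replicate 2 alone was far above the others. Without replicate 2 Trim27 was still called, at 0.23, whereas without replicate 1, 3 or 4 it was not, at 0.41 to 0.42. Trim59 was not called without replicate 1 or 4, at 0.42 and 0.34.

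The 5 falls were those of Trim41, Trim47, Trim37, Trim9 and Trim7. All turned positive under median centring, at 0.10 to 0.59, below the median of 0.70 of all tested genes. Trim41, a ligase for protein kinase C, had −0.62, −0.67, −0.32 and −0.62, a mean of −0.56 ± 0.16 (adjusted p = 0.00444). It was lower on 4 of 4 arrays and was called without each array in turn, at −0.64 to −0.52. Its direct neighbour on chromosome 11 is Trim7, a glycogenin-binding member, which had −0.16, −0.25, −0.17 and −0.25 and a mean of −0.21 ± 0.05 (adjusted p = 0.0402), while its second probe had 0.06. Trim47 had −0.39, −0.79, −0.23 and −0.44, a mean of −0.46 ± 0.23 (adjusted p = 0.0159), and its neighbour Trim65 had 0.11 ± 0.11 and did not pass. Trim37, a peroxisomal and centrosomal ligase, had −0.41, −0.24, −0.40 and −0.29, a mean of −0.33 ± 0.08 (adjusted p = 0.011). Trim9, best known from neurons, had −0.28 ± 0.04 (adjusted p = 0.0155), but its second probe was called higher at 0.25 ± 0.11. Without replicate 1 the calls of Trim47, Trim37, Trim9 and Trim7 were lost, without replicate 3 those of Trim37, Trim9 and Trim7, and without replicate 4 those of Trim47, Trim9 and Trim7.

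The brightest other members that did not pass were Trim35, Trim2, Trim11 and Trim32. Trim35 had −0.04, −0.43, −0.07 and 0.06 on its brightest probe, while its second probe was called lower at −0.34 ± 0.16 (adjusted p = 0.0192). Trim11 had 0.14, −0.33, 0.35 and −0.14 around a mean of 0.00 ± 0.30. Trim32, a ligase known from a limb girdle muscular dystrophy, had 0.24, 0.19, 0.13 and 0.17, above 0 on 4 of 4 arrays with a mean of 0.18 ± 0.05 (adjusted p = 0.0613; 95% interval 0.04 to 0.33). Trim2, a neuronal ligase for neurofilament, had −0.65, 0.24, −0.12 and −0.51 on its brightest probe, with no call, whereas its second probe had 0.46, 0.52, 0.36 and 0.77 and was called higher at 0.53 ± 0.17.

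Grouped by the part that follows the coiled coil, a description added after the values were seen, the 3 tested chromatin-binding members with a PHD finger and a bromodomain did not pass. Trim24 had 0.34 ± 0.44, Trim28, the corepressor KAP1, had 0.15 ± 0.15 with a 95% interval of −0.04 to 0.34, and Trim33, a regulator of Smad4, had −0.18 ± 0.15. The 4 members with NHL repeats (Trim2, Trim3, Trim32 and Trim71) did not pass either on their brightest probes, with a median of 0.01 and 1 of them higher at an unadjusted p under 0.05. The second probe of Trim2 was called higher, at 0.53 ± 0.17. Of 5 tested members with a COS box, which binds microtubules, Trim54 and Trim9 fell and 3 did not pass, around a median of −0.28. The share that fell over all tested genes was 13.9%. Trim9 fell on its brightest probe only, and its second probe was called higher at 0.25. This class includes the muscle members Trim54 and Trim55.

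**Figure D4:**
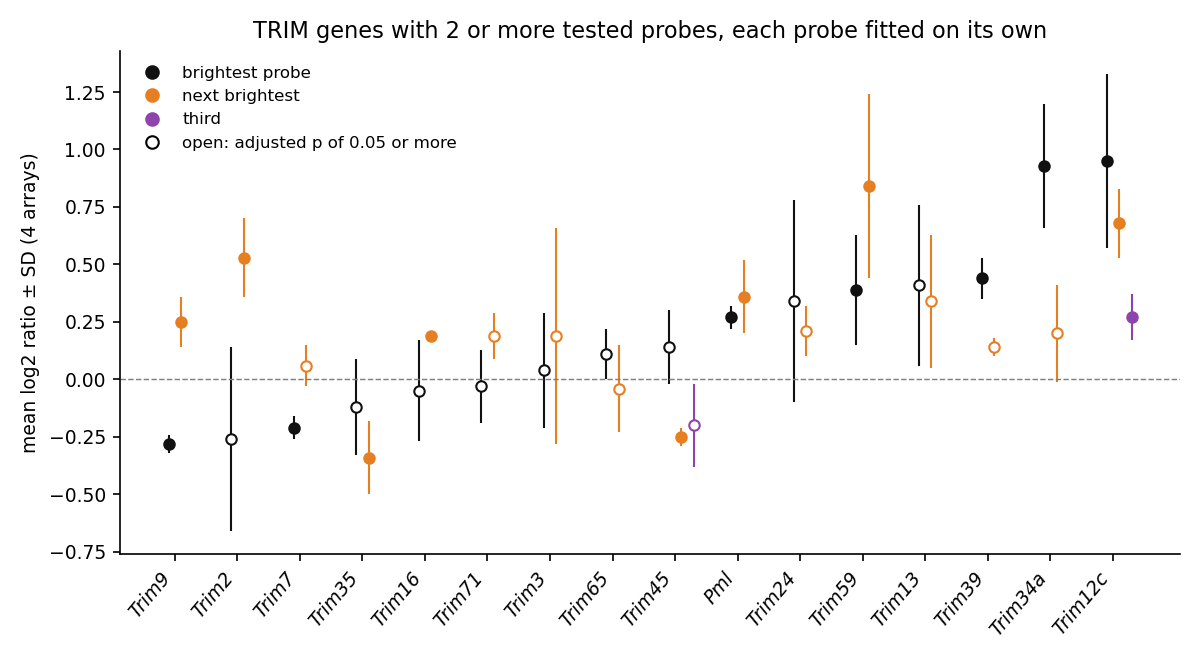
Mean log2 ratio with its SD over 4 arrays for each tested probe of the 16 TRIM genes with at least 2 tested probes, black for the brightest probe and orange and purple for the dimmer ones; filled points passed an adjusted p of 0.05 over all probes. The 3 probes of Trim12c and both of Pml and Trim59 are filled on the same side, whereas those of Trim9 are filled on opposite sides of 0.

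Probes of 1 gene often gave unequal answers. Of 16 members with at least 2 tested probes, 8 had the same call on all of them and 8 did not, and Trim9 had opposite calls. Signs without an opposite call differed for Trim2, Trim7, Trim16, Trim45, Trim65 and Trim71. The tested probes of Trim9 and of Trim45 are labelled with different transcripts of the gene. Those of Trim2, Trim7, Trim16, Trim65 and Trim71 are labelled with the same transcript. Which transcripts each probe detects beyond these labels was not examined. No probe of a member was saturated on any array.

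The enzymes around these ligases gave a setting for the family. In a list of 19 genes of interferon-linked ubiquitin-like conjugation and ligases, 18 were tested, 15 rose, 0 fell and 3 missed the threshold by limma (16 higher and 0 lower at an unadjusted p under 0.05, and 15 and 0 by the methods' t-test). The share that rose over all tested genes was 19.8%. Where both channels had to be above background, 15 of the list were tested and 12 rose. The list's median was 1.95, beside 0.21 for the interferon-responsive TRIM members, and 2.27 beside 0.96 with Feature Extraction's ratios. Both sets were chosen with earlier results of these data known, so the gap between their medians is not a test. Dtx3l and Parp9, partners in a ligase and ADP-ribosyltransferase complex, rose by 3.50 ± 0.21 and 3.31 ± 0.08. Isg15, a ubiquitin-like modifier, rose by 3.37 ± 0.33 and Uba7, its activating enzyme, by 3.05 ± 0.17, while Rbck1, of the linear ubiquitin complex, had 0.26 ± 0.23 over 3 arrays with no call.

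General E1 and E2 enzymes were called in both directions, at a share near that of all genes (33.7% called, 13.9% lower). In that list of 19 genes, 18 were tested, 3 rose (Ube2c 0.51, Ube2e3 0.42 and Ube2k 0.28), 4 fell (Ube2n −0.33, Ube2j1 −0.33, Uba1 −0.24 and Ube2v1 −0.24) and 11 missed the threshold, around a median of −0.04. Ube2n and Ube2v1 encode partners that build signalling ubiquitin chains together. The brightest that did not pass, Ube2r2, had 0.06 ± 0.48. Under median centring all 18 were called higher and with centring on the tested genes without loess 6 were higher and 0 lower. Of all 15678 tested genes, 10510 were higher under the first of these settings and 4709 under the second. Without replicate 1 the list had 1 higher and 0 lower.

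Genes of Pml nuclear bodies and of the small modifier SUMO were also listed. Of 23 tested, 9 rose, 0 fell and 14 missed the threshold by limma (10 higher and 1 lower at an unadjusted p under 0.05, and 8 and 0 by the methods' t-test), around a median of 0.15. Of all tested genes 19.8% rose. Under median centring 21 of these genes were higher and 1 lower, and with centring on the tested genes without loess 12 were higher and 3 lower. All 15678 tested genes had 10510 higher and 2643 lower under median centring, and 4709 higher and 5478 lower without loess. Sp140, a nuclear body protein gene, rose by 0.73 ± 0.16, Isg20, an exonuclease gene, by 0.67 ± 0.14, Uba2, of the SUMO-activating enzyme, by 0.66 ± 0.08 and Senp1, a SUMO protease gene, by 0.52 ± 0.18. Sumo2 had 0.04 ± 0.19. These rises exceeded that of Pml itself, at 0.27; the differences between genes were not tested.

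**Figure D5:**
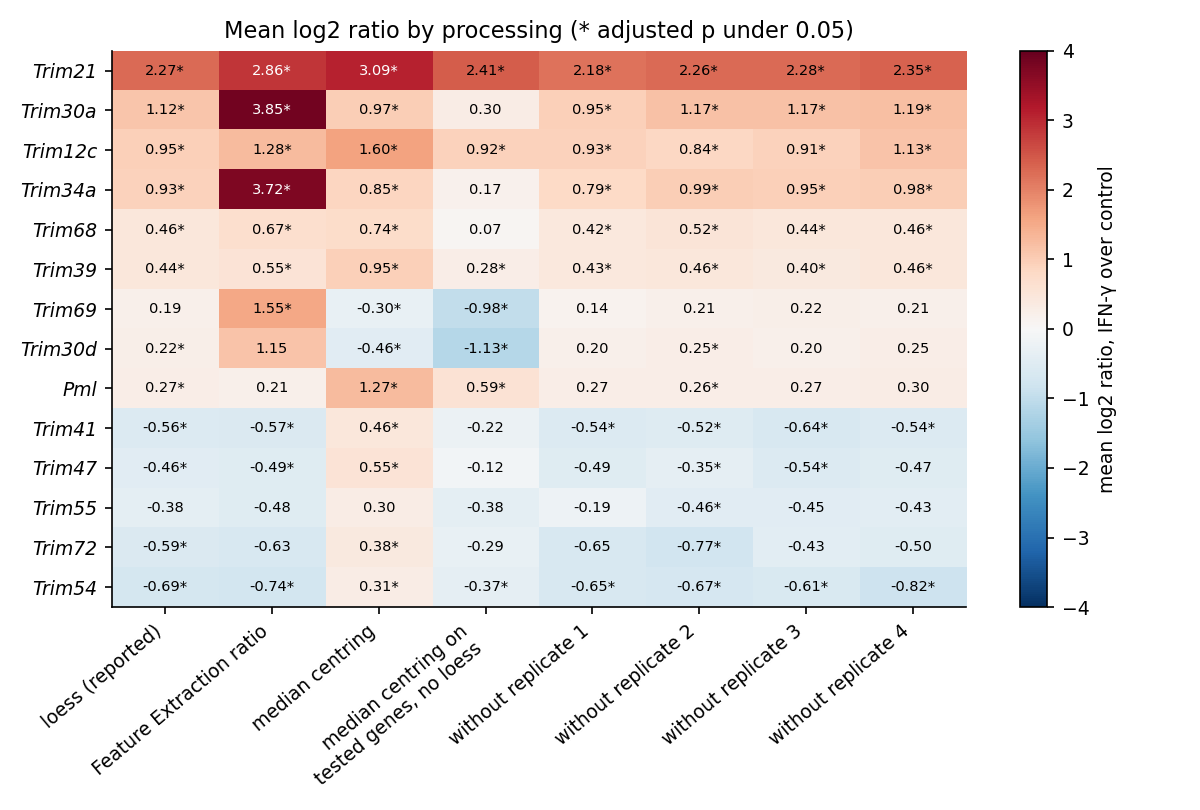
Mean log2 ratio of 14 TRIM genes under the reported loess normalisation and 7 other settings, coloured from blue (lower with IFN-γ) to red (higher), with asterisks for an adjusted p under 0.05. Trim21, Trim12c and Trim39 are positive and called in every column. Trim30a and Trim34a range from 0.30 to 3.85 and from 0.17 to 3.72. The genes that fell under loess turn positive under median centring, where the median of all tested genes is 0.70.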

How the data were processed

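Per the file headers, the authors extracted spot intensities with Feature Extraction 10.7.3.1. The headers name another genome build than the RefSeq tables used for symbols and promoters (GRCm38.p6). Those deposited files also hold the log10 ratio of Cy5 over Cy3, per the file headers. The deposited value table of the authors is in log2 units, with a slope of 3.322 against the scanner's log10 ratios on all 4 arrays, and medians of −0.125 to −0.105; its centring stays unknown.

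Using limma 3.58.1 (R 4.3.3), normexp with an offset of 50 was applied to median spot and local background intensities, followed by loess within each array. Control spots had weight 0, spots with an outlier flag were dropped, and repeat spots of a probe were averaged. Accessions gave 26055 of 39429 probes 1 symbol, 13374 none and 0 several. The brightest tested probe stood for its gene. Mean log2 ratios were tested against 0 with lmFit and eBayes, two-sided, Benjamini-Hochberg adjusted over all 15678 tested genes. The fit was tested on simulated data. All arrays shared 1 slide, and their number limits the precision. Median intensities were 79.75 to 97 in Cy3 and 149.5 to 264 in Cy5.

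For a control not above background, lower bounds of fold were taken from channel values (loess, then Aquantile), setting the dim side per array to its own value or, if greater, to that of the dimmest probe well above background. The methods' t-test was run on the same channel values, with treated and control taken as unpaired groups. Named were all interferon-responsive and muscle members, of the others the 6 largest called rises and falls and the 4 brightest uncalled, and of each list the 4 largest called changes and the brightest uncalled gene. The members and lists were chosen with earlier results of these data known. Domain classes were added after the values were seen. Other scalings, filters, probe choices, the authors' value table and leaving out each array were tried.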

Additional observations from a re-analysis of the deposited data

Results flagged for a closer look

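Of 50 tested members, 7 had 1 array whose gap to the nearest other array exceeded Dixon's critical share of the range for 4 samples; chance flags about 1 in 20 such groups. Replicate 1 was the far array for Trim30a (1.63, the highest), Trim55 (−0.95, the lowest) and Trim69 (0.37, the highest). Replicate 2 was the far array for Trim27 (0.79, the highest) and Trim46 (−0.62, the lowest). Replicate 3 was the far array for Trim41 (−0.32, the closest to 0) and replicate 4 for Trim9 (−0.34, the lowest, in a range that is narrow).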

How the results depend on the processing

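Direction and call of Trim21, Trim12c and Trim39 held under all 13 other settings, and of Trim30a and Trim34a under 11 of 12. Under median centring the counts were 30 members higher and 12 lower with 0 muscle members lower, the medians of interferon-responsive, muscle and other members were 0.92, 0.31 and 0.55, and the sign turned, with a call before or after, for Trim10 −0.56, Trim16 0.87, Trim17 −0.49, Trim2 0.75, Trim30d −0.46, Trim33 0.73, Trim35 0.91, Trim37 0.59, Trim38 −0.34, Trim41 0.46, Trim46 0.55, Trim47 0.55, Trim54 0.31, Trim58 −0.50, Trim61 −0.36, Trim69 −0.30, Trim7 0.20, Trim72 0.38, Trim75 −0.65, Trim8 0.88, Trim9 0.10. With centring on the tested genes without loess, chosen after seeing the data, 20 members and 1 muscle member were lower, the median of other members was −0.12, and the sign turned for Trim10 −1.24, Trim17 −1.17, Trim30d −1.13, Trim38 −1.02, Trim42 −0.63, Trim58 −1.17, Trim60 −0.95, Trim61 −1.04, Trim62 −0.67, Trim65 −0.52, Trim69 −0.98, Trim75 −1.32. With Feature Extraction's ratios and with the authors' value table the interferon-responsive median was 0.96 and 1 muscle member was lower. Where only genes above background in both channels entered, 3 of 6 interferon-responsive members were higher. The methods' t-test gave 3 members and 1 muscle member lower. Second probes turned the sign for Trim16 0.19, Trim2 0.53, Trim45 −0.25, Trim7 0.06, Trim9 0.25. Over all genes, the 3104 higher and 2173 lower became 10510 and 2643 under median centring, 4709 and 5478 with centring on the tested genes without loess, and 1594 to 4060 and 927 to 2981 without 1 array. Leaving out 1 array gave 6 to 12 members higher, 2 to 11 lower and 1 to 3 muscle members lower; the cause was not tested. The limma test already used the pairing, since each array sets 1 treated against 1 control RNA and the ratio within the array was tested. The methods' t-test took the treated and control channels as independent groups and ignored this pairing. A slide block could not be fitted, with 1 slide. Signal over background limits the dim members: for 8 of the 50 tested, no array had a control signal well above background. Among all 15678 tested genes this held for 1281 in the control channel (Cy3) and for 0 in the treated channel (Cy5). On every array fewer probes were well above background in Cy3 than in Cy5.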
